A study of Mus musculus with 9 samples.

Results

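The haematopoietic cytokine receptors described here are 9 mouse genes that let blood progenitors sense the growth factors which keep them alive and direct their lineage choice. They are Csf1r, Csf2ra, Csf2rb, Csf2rb2, Csf3r, Il3ra, Il6ra, Il6st and Epor. Every array probe whose RefSeq transcript belongs to one of these genes was taken, which gave 13 of the 55681 probes, and the 9 genes were 9 of the 13120 named genes tested. All 13 probes were well above background on all 9 arrays.

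RNA came from LSK cells, the bone marrow fraction without lineage markers and with Sca-1 and Kit on its surface, home to the blood stem cells and the earliest progenitors. They were of C57BL/6 background, carried a GFP-labelled vector, and were sorted again out of mice that had received them as a transplant. The 3 groups of 3 arrays each were cells transduced with DNMT3A R882H (R882H), cells transduced with wild-type DNMT3A (WT), and cells transduced with the empty vector (EV). DNMT3A is an enzyme that methylates cytosines in DNA, and R882H is the mutant form of it most often found in acute myeloid leukaemia. All groups shared transduction, GFP, transplantation and sorting, and in the R882H and WT groups the introduced gene came on top of the cells' own Dnmt3a. The sources used here give neither the promoter that drives the vector nor the number of pooled animals. Nothing in the labels says that replicates came from separate animals or cultures, so p-values speak only to the scatter among these 9 samples, part of which may be technical. RNA was measured in bulk, so fewer cells of a type and less RNA per cell cannot be told apart.

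Most cytokine receptors have no kinase of their own. They pair a chain that binds the ligand with a chain that signals through JAK kinases and STAT transcription factors. The receptors for IL-3 and GM-CSF share the beta chain of Csf2rb, the receptor for IL-6 signals through the shared chain gp130 of Il6st, and the receptors for G-CSF and erythropoietin are homodimers. Csf1r differs in being a receptor tyrosine kinase of its own. In marrow these receptors mark lineage bias: Csf1r, Csf2ra and Csf3r are typical of the granulocyte and monocyte side and Epor of the red cell side.

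Values are log2 processed intensity relative to the array's 75th percentile, so 0 is the brightness of that percentile and 1 unit is a doubling, and levels are compared only within a probe. Between 53.4% and 64.8% of probes were well above background per array, with means of 60.8% ± 3.66 for R882H, 59.4% ± 4.72 for WT and 56.2% ± 2.39 for EV (SD, n = 3). The number of arrays limits the precision. The Dnmt3a probe spanned 1.07 to 1.67 in R882H arrays, 0.45 to 1.80 in WT arrays and 0.51 to 1.44 in EV arrays. Its position relative to the introduced gene is unknown here, so it does not check the labels. Of 8 LSK markers 7 were well above background on all 9 arrays. The mean log2 signal over the 8 was lowest in EV replicate 3, at 1.23, and lay between 1.80 and 2.38 on the other arrays. Among the columns of the authors' deposited value table, 7 of 9 held the values of another array than the one they are named for, 4 of them of another group. Groups here follow the labels of the scanner files, and which of the assignments is right is unknown here. By the table's columns the differences of R882H for Epor and Il6ra were smaller, as given with each gene. Slide 1 held the 3 EV arrays and WT replicate 1, slide 2 held WT replicates 2 and 3 with R882H replicates 1 and 2, and slide 3 held R882H replicate 3 alone. No slide held both R882H and EV. Replicate 3 was the highest of its group in every group for 5 of the 9 receptors, as given below.

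No receptor gene passed the test in any comparison. With limma over the 13120 genes, 0 of 9 had an adjusted p under 0.05 for R882H against EV, for R882H against WT or for WT against EV, and the same held for all genes, of which 0% were called in each. Unadjusted p was under 0.05 for 1 of 9 receptors with R882H against EV (background 9.05%), for 2 with R882H against WT (background 8.04%) and for 0 with WT against EV (background 5.95%). By the probe kept for each gene, the receptors that stood furthest apart were Epor and Il6ra. The Epor mean was 2.33-fold higher in R882H than in EV, and the Il6ra mean 2.397-fold lower in R882H than in WT. The dimmer Csf1r probes, given below, differed about as much, by -1.24 and -1.27 log2 units between R882H and WT. Csf3r and the brightest Csf1r probe varied least across the 9 arrays. These comparisons share arrays, since each group enters 2 of them.

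**Figure D1:**
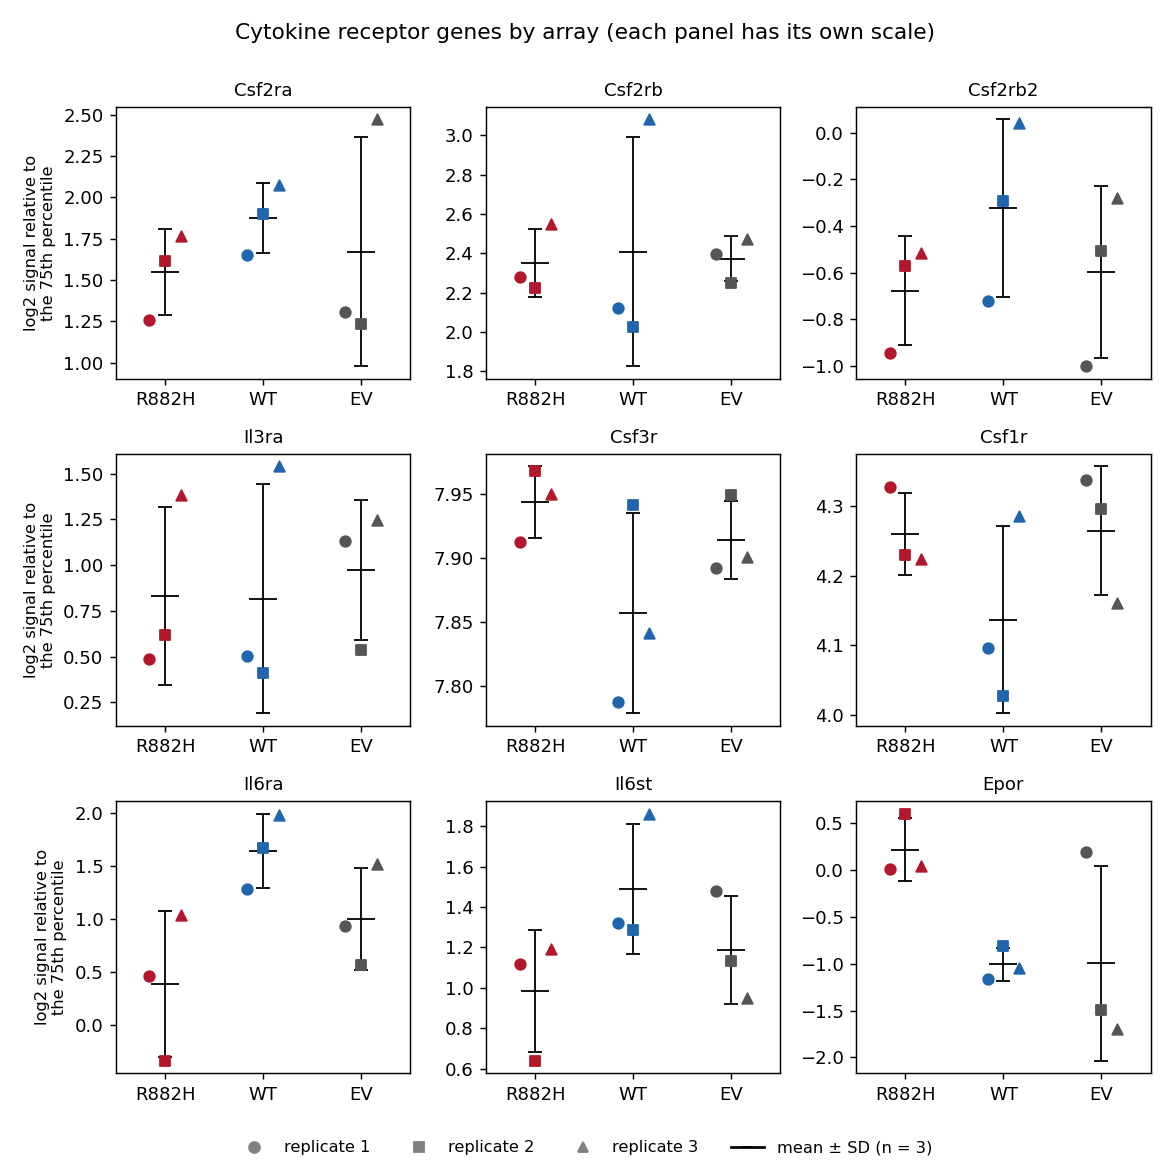
Log2 signal over the 75th percentile of the array (vertical axes, each with its own scale) of the probe kept for each of the 9 receptor genes, by group; points are single arrays, shaped by replicate number, and bars are the mean and SD of 3 arrays. Epor lay between 0.02 and 0.60 in R882H arrays against -0.81 or below in WT arrays, and Il6ra between -0.34 and 1.03 in R882H arrays against 1.28 or above in WT arrays.

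The promoters of Epor and Il6ra are shown because these genes differed most between groups by the probe kept for each gene. Each sequence holds the 250 bases before the transcription start, 5′ to 3′ on the strand of the gene, from RefSeq on build GRCm38.p6. The Epor promoter lies at chr9:21963577-21963826 and that of Il6ra at chr3:89913197-89913446, both on the minus strand. Capitals mark matches on either strand to the GATA motif AGATAA (read here as TTATCT), to the RUNX motif TGTGGT (read as ACCACA) and to the PU.1 motif GAGGAA (read as TTCCTC).
Epor promoter: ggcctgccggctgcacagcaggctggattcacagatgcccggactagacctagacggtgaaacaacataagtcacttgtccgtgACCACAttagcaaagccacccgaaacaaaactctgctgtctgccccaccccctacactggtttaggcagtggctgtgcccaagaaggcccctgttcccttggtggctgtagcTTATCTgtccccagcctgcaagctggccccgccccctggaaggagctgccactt
Il6ra promoter: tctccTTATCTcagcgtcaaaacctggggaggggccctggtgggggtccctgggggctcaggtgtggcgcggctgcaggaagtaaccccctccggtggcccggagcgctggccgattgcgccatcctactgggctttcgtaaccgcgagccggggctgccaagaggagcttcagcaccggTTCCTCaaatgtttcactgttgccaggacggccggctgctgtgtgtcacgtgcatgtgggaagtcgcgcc
In Epor the GATA match began 54 bases and the RUNX match 166 bases before the start. In Il6ra the GATA match began 245 bases and the PU.1 match 70 bases before it. Promoters were found for 7 of the 9 genes, all but Csf1r and Csf2rb. GATA matches were in 2 of the 7 (Epor and Il6ra) and in 9.99% of all 32851 promoters of this length. PU.1 matches were in 4 of the 7 (Il6ra, Csf3r, Csf2rb2 and Csf2ra) and in 23.25% of all promoters, and the RUNX motif was in 1 (Epor) and in 14.05%. The Sp1 motif GGGCGG, not capitalised here, was in Epor, Il6st, Il3ra and Csf2ra and in 32.74% of all. The STAT motif TTCNNNGAA was in Csf2rb2 alone (7.02% of all) and the C/EBP motif TTGCNNAA in Il3ra alone (9.56%). None of the searched motifs overlapped another in the sequences printed. These are matches of letters and not sites of binding.

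Epor (NM_010149, probe A_51_P435339) encodes the erythropoietin receptor, which red cell precursors need to survive. Its log2 signal was 0.02, 0.60 and 0.04 in R882H replicates 1, 2 and 3, against -1.16, -0.81 and -1.04 in WT arrays and 0.19, -1.49 and -1.70 in EV arrays. All R882H arrays lay above all WT arrays, while EV replicate 1 lay among the R882H arrays and the other EV arrays below all of them. The means were 0.22 ± 0.33 in R882H, -1.01 ± 0.18 in WT and -0.997 ± 1.04 in EV (SD, n = 3). R882H exceeded EV by 1.22 ± 0.45 (SE) log2 units, with a 95% interval of 0.20 to 2.23 and a limma adjusted p of 0.523. It exceeded WT by 1.23 ± 0.45, a 2.34-fold difference, with an interval of 0.21 to 2.24 and a limma adjusted p of 0.551. WT differed from EV by -0.01 ± 0.45.

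The spread of Epor among the EV arrays came from replicate 1. Without it the difference between R882H and EV was 1.81 ± 0.23 (SE), with a limma adjusted p of 0.164, the smallest of any receptor under any setting. Without EV replicate 3 it was 0.87. On slide 2, where R882H replicates 1 and 2 share the slide with WT replicates 2 and 3, R882H exceeded WT by 1.24 log2 units. Slide as a block gives this same value by design, since no other slide holds both groups. With the block, R882H exceeded EV by 1.07 with an SE of 0.95, since only WT replicate 1 links EV to the other slides. By the columns of the deposited value table, which assign 4 arrays to another group, the differences were 0.68 against EV and 0.70 against WT.

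The genes whose profile over the 9 arrays was most like that of Epor were Ank1, the ankyrin of the red cell membrane, and Aqp1, a water channel that red cells carry, both with a Pearson r of 0.98. Arrays of this set share their slides, amplification and replicate number, and r is given as a description. Erythroid markers were highest in the same EV array. Over 8 markers the mean log2 signal was -2.48, -1.66 and -2.08 in R882H arrays, -2.15, -2.79 and -2.05 in WT arrays and -0.92, -2.82 and -2.48 in EV arrays. EV replicate 1 was thus the highest of all 9. Only 2 of the 8 were well above background on all 9 arrays. Hba-a1, an alpha globin gene, stood at 2.03 in EV replicate 1 and at 1.02 or below elsewhere. Megakaryocyte markers, which share regulators with the red cell lineage, had mean signals of -0.14, 0.23 and -0.68 in R882H arrays, against -0.97, -0.79 and -1.50 in WT arrays and -0.51, -0.75 and -1.83 in EV arrays, and 6 of the 9 were well above background on all 9 arrays. Their part in the Epor difference was not tested.

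Il6ra (NM_010559, probe A_55_P2068892) encodes the chain that binds IL-6. Its log2 signal was 0.46, -0.34 and 1.03 in R882H replicates 1, 2 and 3, against 1.28, 1.67 and 1.98 in WT arrays and 0.93, 0.56 and 1.52 in EV arrays. All R882H arrays lay below all WT arrays, and the EV arrays overlapped with both. The means were 0.38 ± 0.69 in R882H, 1.64 ± 0.35 in WT and 1.001 ± 0.48 in EV (SD, n = 3). R882H differed from WT by -1.26 ± 0.37 (SE) log2 units, with a 95% interval of -2.11 to -0.41, an unadjusted p of 0.00858 and a limma adjusted p of 0.551. It differed from EV by -0.62 ± 0.37 with an adjusted p of 0.600, and WT differed from EV by 0.64 ± 0.37 with an adjusted p of 0.874. Measured from EV, the R882H and WT means lay about equally far apart on opposite sides.

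On slide 2 the R882H and WT means of Il6ra differed by -1.77 log2 units, which by design is also the value with slide as a block. On slide 1 WT replicate 1 lay 0.28 above the mean of the 3 EV arrays. Leaving out single arrays kept the R882H and WT difference between -1.59 and -0.90. The difference of R882H from EV was less settled: it was -0.26 without R882H replicate 2, the lowest array, -0.36 without EV replicate 3 and -0.94 without R882H replicate 3. With slide as a block it was -1.49 ± 0.60 (SE; limma adjusted p = 0.836), although R882H and EV share no slide and only WT replicate 1 links them. By the columns of the deposited value table R882H differed from WT by -0.32 and from EV by -0.039. The genes most like Il6ra over the 9 arrays were Ly86, which encodes a partner of a Toll-like receptor homologue on myeloid and B cells, and the mitochondrial ribosome gene Mrpl24, both with r = 0.97.

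Il6st (NM_010560, probe A_51_P473888) encodes gp130, the signalling chain shared by the receptors for IL-6, IL-11 and LIF. Its log2 signal was 1.12, 0.64 and 1.19 in R882H arrays, against 1.32, 1.29 and 1.86 in WT arrays and 1.48, 1.13 and 0.95 in EV arrays. All R882H arrays lay below all WT arrays, as for Il6ra, and the EV arrays spanned both. R882H differed from WT by -0.51 ± 0.24 (SE) log2 units (limma adjusted p = 0.626) and from EV by -0.20 ± 0.24 (adjusted p = 0.766). On slide 2 the difference from WT was -0.69. It was -0.32 without WT replicate 3 and -0.33 without R882H replicate 2, and by the columns of the deposited value table it had the opposite sign, 0.12. The difference from EV was -0.029 without R882H replicate 2, -0.056 without EV replicate 1, -0.31 without R882H replicate 3 and -0.32 without EV replicate 3, and it was -0.56 with slide as a block. The most similar genes were Faap100 of the Fanconi anaemia complex, with r = 0.95, and Tmem229b, with r = 0.92.

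With R882H against WT, 3 of the 9 receptors had groups that did not overlap. They were Epor, 1 higher where 6.75% of all genes were, and Il6ra and Il6st, 2 lower where 8.7% were, against 15.4% of all genes in either direction. With R882H against EV 0 of 9 did, where 9.42% of all genes were higher and 8.96% lower without overlap, 18.4% in either direction. With WT against EV 0 of 9 did, where the shares were 5.66% and 4.4%, 10.1% in either direction. The median difference over the 9 receptors was -0.08 for R882H against EV, -0.06 for R882H against WT and 0.04 for WT against EV, beside medians over all genes of -0.02, -0.01 and 0.01 in that order. Against EV 2 receptors were on the higher side with R882H (Csf3r and Epor) and 7 on the lower. Against WT 4 were on the higher side and 5 on the lower. WT against EV had 5 higher and 4 lower, from -0.16 for Il3ra to 0.64 for Il6ra. The sides taken by the smallest differences depended on the scaling: against EV, R882H changed sign for Csf1r, Csf2rb or Csf3r under another scaling, against WT for Csf2rb, Csf3r or Il3ra, and WT against EV for Csf2rb or Csf3r.

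**Figure D2:**
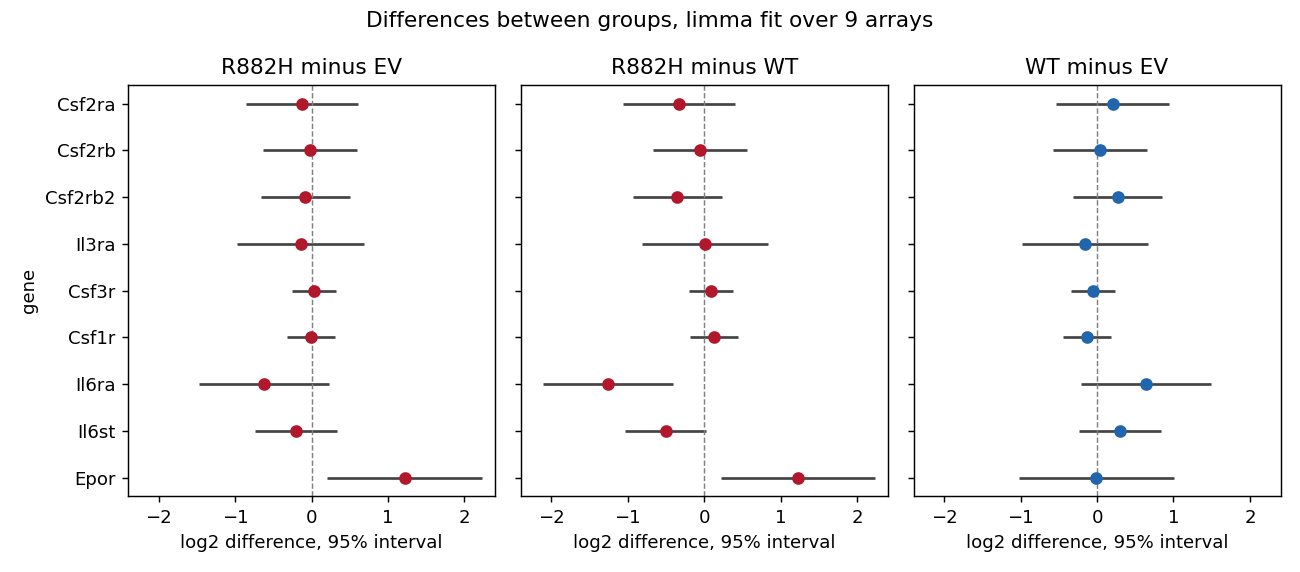
Log2 difference between groups (horizontal axes) for the 9 receptor genes, from the limma fit over 9 arrays; points are differences and lines are 95% intervals. The intervals leave out 0 for Epor in both comparisons of R882H and for Il6ra with R882H against WT, and none of these passed after adjustment over 13120 genes.

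Csf3r (NM_007782, probe A_55_P2070352) encodes the G-CSF receptor, the main driver of neutrophil production. Its log2 signal was 7.91, 7.97 and 7.95 in R882H arrays, against 7.79, 7.94 and 7.84 in WT arrays and 7.89, 7.95 and 7.90 in EV arrays. The groups overlapped within 0.18 log2 units over all 9 arrays. The SD over the 9 arrays was 0.06, and 0.12% of the tested genes had a smaller one. Genes of similar brightness varied less than others: the median SD was 0.12 among the 72 genes within 0.5 log2 units of the Csf3r mean, and 0.31 among all genes. No spot was flagged as saturated on any array. Whether signals this bright still scale fully was not tested. R882H differed from EV by 0.03 ± 0.13 (SE), with a 95% interval of -0.26 to 0.32, and from WT by 0.09 ± 0.13, with an interval of -0.20 to 0.38. The genes most like it were Acbd5 (r = 0.95) and Olfr221 (r = 0.93).

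Csf1r (NM_001037859) encodes the receptor of CSF-1 and IL-34, on which monocytes and macrophages depend. It had 3 probes, and they did not show the same pattern. Probe A_55_P2025073, the brightest and the one kept for the gene, read 4.33, 4.23 and 4.22 in R882H arrays, against 4.10, 4.03 and 4.29 in WT arrays and 4.34, 4.30 and 4.16 in EV arrays. These groups overlapped, and the SD over 9 arrays was 0.11, with 1.91% of tested genes below it. By this probe R882H differed from EV by -0.00 ± 0.14 (SE) and from WT by 0.12 ± 0.14.

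Probe A_55_P2025078 read 1.104, -0.10 and 1.56 in R882H arrays, against 1.51, 2.31 and 2.48 in WT arrays and 1.45, 1.39 and 1.52 in EV arrays. Here R882H replicate 3 lay just above WT replicate 1, and the other R882H arrays lay below every WT array. Probe A_52_P602091 read -2.87, -3.34 and -2.49 in R882H arrays, against -1.99, -1.90 and -0.996 in WT arrays and -3.49, -2.73 and -1.52 in EV arrays, so that R882H and WT did not overlap. In a limma fit of all 17033 detected named probes, chosen after the data were seen, R882H differed from WT by -1.24 ± 0.41 (SE) with the first of these probes (adjusted p = 0.568). With the second it differed by -1.27 ± 0.49 (adjusted p = 0.589), and with the brightest probe by 0.12 ± 0.14 (adjusted p = 0.841). Over the 9 arrays these dimmer probes had an r of 0.73 with each other and of -0.26 and -0.45 with the brightest one. The mean of the 3 probes differed by -0.80 between R882H and WT. The direction of Csf1r therefore depends on the probe, and the sources used here do not say where in the transcript each probe lies. The genes most like the brightest probe were Fn3krp (r = 0.96) and Tmem126a (r = 0.90).

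**Figure D3:**
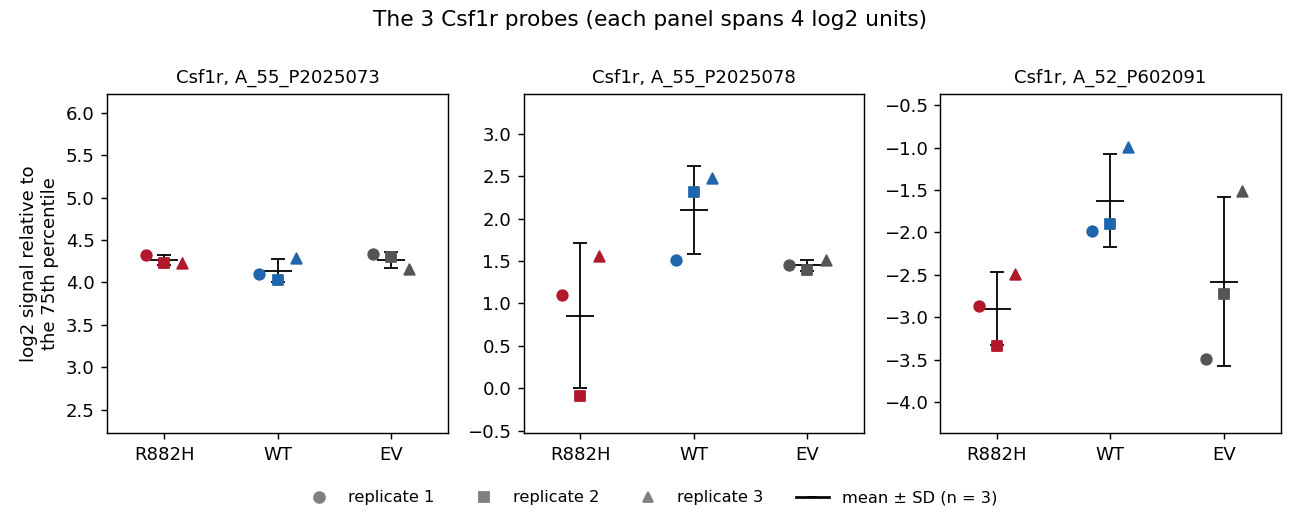
Log2 signal relative to the 75th percentile (vertical axes, each spanning 4 log2 units) of the 3 Csf1r probes by group; points are arrays and bars the mean and SD of 3. The brightest probe stays between 4.03 and 4.34 on all arrays, while the other probes range over 2.57 and 2.496 log2 units.

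The receptors for IL-3 and GM-CSF pair a ligand-binding chain with the shared beta chain. Csf2ra (NM_009970, probe A_51_P341465), the GM-CSF binding chain, read 1.26, 1.62 and 1.76 in R882H arrays, against 1.65, 1.90 and 2.07 in WT arrays and 1.31, 1.23 and 2.47 in EV arrays. Il3ra (NM_008369, probe A_55_P2008181), the IL-3 binding chain, read 0.49, 0.62 and 1.39 in R882H arrays, against 0.50, 0.41 and 1.54 in WT arrays and 1.13, 0.54 and 1.25 in EV arrays. For both genes all groups overlapped. Csf2ra differed by -0.13 ± 0.32 (SE) between R882H and EV and by -0.33 ± 0.32 between R882H and WT. Il3ra differed by -0.14 ± 0.36 and 0.01 ± 0.36 in the same comparisons. The lowest limma adjusted p among these values was 0.796. With slide as a block R882H differed from EV by -0.57 for Csf2ra and by -0.89 for Il3ra.

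Csf2rb, the beta chain shared by IL-3, IL-5 and GM-CSF, and Csf2rb2, the mouse gene for a beta chain that serves IL-3 alone, are neighbours on chromosome 15 and close copies of each other. Signal of one may therefore include RNA of the other, and their values are uncertain in this respect. The kept Csf2rb probe A_66_P123635 (NM_007780) read 2.28, 2.22 and 2.55 in R882H arrays, against 2.12, 2.03 and 3.08 in WT arrays and 2.397, 2.25 and 2.47 in EV arrays. The kept Csf2rb2 probe A_51_P146753 (NM_007781) read -0.95, -0.57 and -0.51 in R882H arrays, against -0.72, -0.29 and 0.04 in WT arrays and -1.002, -0.51 and -0.28 in EV arrays. The highest array was WT replicate 3 for both genes, and all groups overlapped. R882H differed from EV by -0.02 ± 0.27 (SE) for Csf2rb and by -0.08 ± 0.26 for Csf2rb2, and from WT by -0.06 ± 0.27 and -0.35 ± 0.26. With slide as a block the differences from EV were -0.55 and -0.76.

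The second Csf2rb probe, A_52_P52618, read 1.58, 1.59 and 2.14 in R882H arrays, against 1.91, 2.64 and 2.86 in WT arrays and 1.65, 1.70 and 2.79 in EV arrays. Its difference between R882H and WT was -0.70 ± 0.36 (SE), with a limma adjusted p of 0.657 over the 17033 probes. The second Csf2rb2 probe, A_55_P2034663, read -1.21, -1.33 and -0.67 in R882H arrays, against -2.01, -1.36 and -0.21 in WT arrays and -1.45, -1.12 and -0.09 in EV arrays. It differed between R882H and WT by 0.12 ± 0.49, opposite in sign to the kept probe. Across arrays the Csf2rb probes correlated at r = 0.48 with each other, and A_52_P52618 correlated at r = 0.86 with the kept probe of Csf2rb2.

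By the kept probes, the profiles of Csf2rb and Il3ra over the 9 arrays had the highest r of any pair of receptors, 0.88. Next came Csf2ra with Csf2rb2 at 0.76, while Csf2ra had 0.39 with Csf2rb and Il3ra had 0.41 with Csf2rb2. Il6ra had 0.73 with Il6st and -0.62 with Epor. The genes most like Csf2rb were Ccnyl1 (r = 0.95) and Eif4ebp1 (r = 0.92), and those most like Il3ra were Sco2 and Nop2 (both r = 0.97). Csf2ra was most like Spcs1 (r = 0.95) and Tcn2 (r = 0.94), and Csf2rb2 most like Gpr65 (r = 0.94) and Tnnt1 (r = 0.93).

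Replicate 3 was the highest array of its group in all 3 groups for the kept probes of 5 of the 9 receptors, Csf2ra, Csf2rb, Csf2rb2, Il3ra and Il6ra, where this held for 11.1% of all tested genes. It also held for the second probes of Csf2rb and Csf2rb2 and for the dimmer Csf1r probes. For Il3ra replicate 3 exceeded the mean of the other replicates by 0.83 in R882H, 1.08 in WT and 0.41 in EV. For Csf2ra the excess was 0.33, 0.30 and 1.20, and for Il6ra it was 0.97, 0.50 and 0.77, in the same order. For Csf3r and the brightest Csf1r probe replicate 3 differed from the others by at most 0.22 in size in every group, and for Epor the difference was -0.27 in R882H, -0.06 in WT and -1.05 in EV.

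The mean log2 signal over 9 neutrophil markers, most of them near background, was also highest in replicate 3 of each group, though not for each marker alone. The mean was -4.34, -3.98 and -3.61 in R882H replicates 1, 2 and 3, against -4.49, -3.49 and -2.34 in WT arrays and -3.52, -4.02 and -2.35 in EV arrays. Only 3 of the 9 exceeded background clearly on every array, and the granule genes Ltf and Mmp9 were on none. Of these 3, S100a9, a neutrophil calprotectin gene, read -1.97, -1.30 and -2.22 in R882H arrays, against -3.13, -1.96 and 0.76 in WT arrays and -0.77, -1.22 and 3.66 in EV arrays. Camp, a granule peptide gene, read -1.74, -1.12 and -2.02 in R882H arrays, against -1.28, -1.49 and -0.98 in WT arrays and -1.996, -1.43 and -1.64 in EV arrays. In R882H replicate 3 was thus the lowest array for both. Cxcr2, a chemokine receptor of neutrophils, was highest in replicate 3 of R882H and WT and in replicate 1 of EV. Monocyte and macrophage markers had array means of -3.18 to -2.60 in R882H, -3.11 to -2.66 in WT and -3.09 to -2.62 in EV. Of these 10 markers 3 were well above background on every array and Mrc1 on none. Cx3cr1 read 0.51, 0.19 and 0.14 in R882H, below all WT arrays (1.25, 1.53 and 0.56). In EV it read 1.29, 0.43 and -0.40. Ccr2 read -2.72, -2.66 and -1.03 in R882H, against -1.14, -0.89 and 0.13 in WT. In EV it read -1.16, -2.77 and -0.61, and its groups overlapped. C1qb lay between -0.74 and -0.23 on all arrays. The part of these markers in the receptor values was not tested. Without replicate 3 of any group, Il6ra differed by -1.42 between R882H and WT, and Epor by 0.96 between R882H and EV and by 1.30 between R882H and WT.

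**Figure D4:**
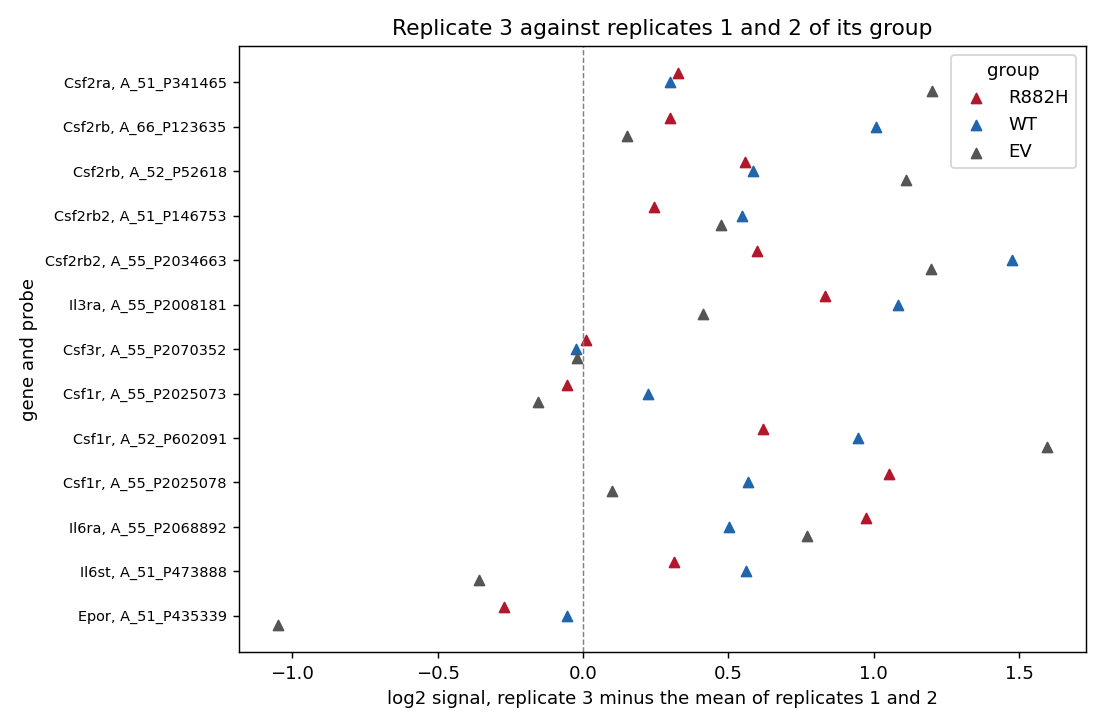
Log2 signal of replicate 3 minus the mean of replicates 1 and 2 of its group (horizontal axis) for the 13 probes (rows), by group; each triangle is 1 group and the dashed line marks 0. In 9 probes all 3 triangles lie right of 0, Csf3r lies between -0.023 and 0.0096, and Epor lies left of it in every group.

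RNA of the ligands of these receptors was near or below background. None of the 7 genes (Csf1, Il34, Csf2, Csf3, Il3, Il6 and Epo) could be tested. The probes of Il34, Csf2, Csf3, Il3 and Epo were well above background on 0 of 9 arrays, and that of Il6 on 1, which was R882H replicate 3. The best probe of Csf1 was so on 6 arrays, 2 in each group.

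The remaining genes of the pathway were read from lists of other haematopoietic cytokine receptors, other receptors of the gp130 family, JAKs and STATs, adaptors and kinases, negative regulators, STAT targets and transcription factors. None of their members passed in any comparison. The genes named below are those of smallest p in each list and did not pass with limma, where the lowest adjusted p among them was 0.479. Values given with ± are log2 differences with their SE.

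Of 26 other cytokine receptors 23 were tested. Their median was 0.17 for R882H against EV, with 15 higher and 8 lower, 0.04 for R882H against WT and 0.15 for WT against EV. Unadjusted limma p was under 0.05 for 1 of the 23 with R882H against EV (background 9.05%). Il4ra, the IL-4 receptor chain, had the smallest p for R882H against EV (0.38 ± 0.15), with 4.61, 4.35 and 4.58 in R882H arrays against 4.04, 4.04 and 4.31 in EV arrays, so that the groups did not overlap. Tgfbr2, a TGF-beta receptor, had 0.47 ± 0.22 there. Il10ra, the IL-10 receptor, had -0.66 ± 0.32 for R882H against WT and 0.64 ± 0.32 for WT against EV, Ifngr2 had -0.38 ± 0.19 for R882H against WT, and Il5ra had 0.57 ± 0.20 for WT against EV. Of 5 other gp130 family receptors 4 were tested. Il11ra1, the IL-11 binding chain, had 0.25 ± 0.16 for R882H against EV and 0.45 ± 0.16 for WT against EV, both without overlap. For R882H against WT it had -0.20 ± 0.16, with overlap. Il27ra had 0.48 ± 0.52 for R882H against EV, Cntfr 0.42 ± 0.57 for R882H against WT, and Lifr 0.97 ± 0.81 for WT against EV. Lifr was well above background on 7 arrays.

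All 11 JAK and STAT genes were tested, with medians of 0.18 for R882H against EV, 0.03 for R882H against WT and 0.08 for WT against EV. Jak2, the kinase bound by the erythropoietin, IL-3 and GM-CSF receptors, read 1.37, 1.24 and 1.31 in R882H arrays, against 1.07, 1.04 and 1.09 in WT arrays and 0.94, 1.24 and 0.78 in EV arrays. All R882H arrays lay above all WT arrays and, narrowly (1.243 in R882H replicate 2 against 1.242 in EV replicate 2), above all EV arrays. The means differed by 0.24 ± 0.15 (SE) from WT and by 0.32 ± 0.15 from EV. For WT against EV, Stat5a had 0.28 ± 0.15 and Jak3 had -0.36 ± 0.31.

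All 24 adaptors and kinases were tested, with medians of -0.06, -0.06 and 0.09 in the same 3 comparisons. Rasgrp2 had -0.58 ± 0.30 for R882H against EV and Grb2, an adaptor to Ras, -0.31 ± 0.18 for R882H against WT. For WT against EV the phosphoinositide kinase gene Pik3cd had 0.26 ± 0.13 and Dok2 had 0.91 ± 0.53.

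All 23 negative regulators were tested, with medians of -0.01, -0.04 and -0.01. The phosphatase gene Ptpn1 read -1.43, -1.60 and -1.14 in R882H arrays, against -1.15, -1.46 and -1.30 in WT arrays and -0.75, -0.92 and -0.71 in EV arrays. R882H and WT both lay below EV without overlap, and the differences from EV were -0.60 ± 0.17 (SE) with R882H and -0.51 ± 0.17 with WT. Cish, a feedback inhibitor induced by STAT5, read 0.96, 1.11 and 1.60 in R882H arrays, against 0.80, 1.14 and -0.06 in WT arrays and -0.10, 0.55 and 0.41 in EV arrays. It stood 0.93 ± 0.33 above EV with R882H. The ubiquitin ligase gene Cbl had -0.43 ± 0.16 and Socs5 0.86 ± 0.38 for R882H against WT, both without overlap, and Socs5 was well above background on 7 arrays.

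All 20 listed targets of STAT5 or STAT3 were tested, a list that shares Cish and the Socs genes with the negative regulators. Their medians were 0.24 for R882H against EV, with 15 higher and 5 lower, 0.39 for R882H against WT, with 16 higher and 4 lower, and -0.04 for WT against EV. Unadjusted limma p was under 0.05 for 3 of the 20 against EV (background 9.05%) and for 3 against WT (background 8.04%). With R882H the groups did not overlap for 2 of the 20 against EV (18.4% of all genes) and for 1 against WT (15.4%). Socs3, the feedback inhibitor of gp130 and the G-CSF receptor, read 1.40, 1.17 and 1.77 in R882H arrays, against 0.94, 1.28 and 0.44 in WT arrays and -0.67, 1.18 and 0.18 in EV arrays. It stood 1.22 ± 0.43 (SE) above EV with R882H, where EV replicate 2 overlapped, and 0.66 ± 0.43 above EV with WT. For R882H against WT the growth arrest gene Gadd45g had 1.02 ± 0.33, without overlap, and the phosphatase gene Dusp5 1.16 ± 0.46. Dusp5 had -0.99 ± 0.46 for WT against EV and the cytokine gene Osm -0.78 ± 0.49.

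All 18 transcription factors known to act on such receptor genes were tested, with medians of 0.19, 0.28 and 0.10. Spi1, which encodes PU.1, the factor that drives the myeloid receptor genes, read 1.09, 0.94 and 1.61 in R882H arrays, against 1.57, 1.49 and 1.97 in WT arrays and 2.00, 1.64 and 2.23 in EV arrays. R882H lay below EV without overlap, by -0.74 ± 0.24 (SE). Gata1, the red cell and megakaryocyte factor that drives Epor, read 3.43, 3.23 and 2.86 in R882H arrays, against 2.53, 3.01 and 2.25 in WT arrays and 2.78, 2.10 and 1.18 in EV arrays. R882H lay above EV without overlap, by 1.16 ± 0.38.

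Gata2, which maintains stem and progenitor cells, read 4.24, 4.13 and 4.18 in R882H arrays, against 3.57, 3.58 and 3.08 in WT arrays and 3.96, 3.64 and 3.07 in EV arrays. R882H lay 0.77 ± 0.24 (SE) above WT without overlap. Jun lay 0.93 ± 0.28 above WT with R882H, also without overlap. Irf8, a monocyte and dendritic cell factor, had 0.63 ± 0.32 for WT against EV. There the groups narrowly did not overlap (2.2285 in WT replicate 1 against 2.2071 in EV replicate 1). Irf8 differed more between R882H and WT, by -1.0042 without overlap, and by -0.3766 between R882H and EV, with overlap. Tal1 had 0.52 ± 0.29 for WT against EV, with overlap. It differed more between R882H and EV, by 0.8693 without overlap, and by 0.3464 between R882H and WT, with overlap.

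**Figure D5:**
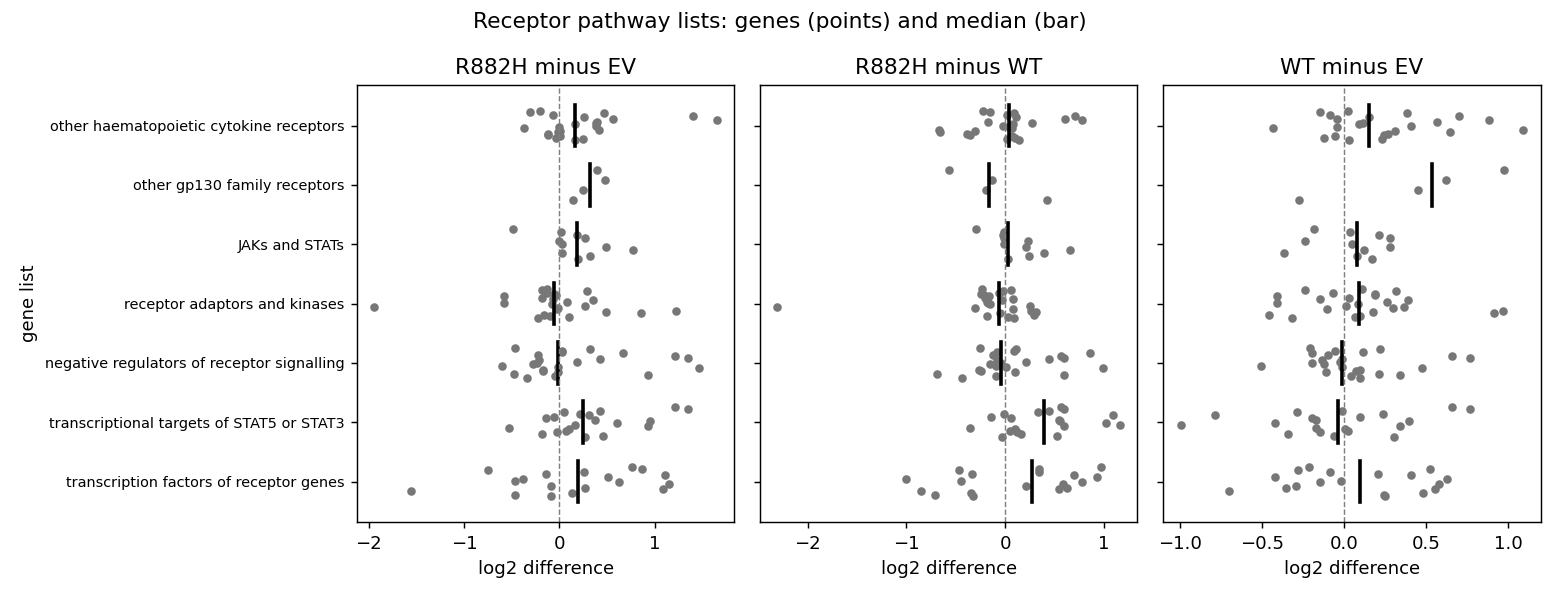
Log2 difference (horizontal axes) of each tested gene (points) of the 7 pathway lists (rows), with the list median as a bar, for R882H minus EV, R882H minus WT and WT minus EV. Medians lie between -0.06 and 0.39 except for the 4 other gp130 family receptors, at 0.32, -0.17 and 0.53, and no gene passed the test.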

How the data were processed

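Gene expression of 9 mouse LSK samples was measured on Agilent SurePrint arrays with 1 colour (Cy3), with cDNA amplified from 3.67 ng of total RNA, per the labels' protocols. The scans, of array design 028005, had been read with Agilent Feature Extraction 10.10.1.1, per the file headers. The deposited processed intensity of a spot had its background subtracted by this software, per the file headers, and came with calls on background, saturation and outliers. A value table deposited by the authors gave log2 values, and the sources used here do not say how it was made. Set against the arrays they were the log2 signal relative to the 75th percentile, centred per probe over the columns, and by the scanner files' labels 7 of 9 columns held another sample's array. Which is right is unknown here, and the table served as an alternative. No column of another series was present (0).

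Each array had 62976 spots, 59305 of them not controls. Outlier spots (154 to 184 per array) were left out, processed intensities were taken to log2, the array's 75th percentile (195 to 238) was taken off, and repeat spots were averaged per probe. Through RefSeq accessions 27235 of 55681 probes had 1 symbol, 0 had several and 28446 had none. A probe was kept if at least 1 group had it well above background on all 3 arrays (31242 probes, 17033 of them with a symbol). The probe of highest mean was kept per symbol, which left 13120 genes. Groups were compared with limma 3.58.1 in R 4.3.3 (lmFit and eBayes, all 9 arrays, no covariate, 6 residual and 2.81 prior degrees of freedom) and Benjamini-Hochberg adjustment over all genes, with adjusted p under 0.05 called. The median SE of a difference was 0.232 log2 units. The fit was also run on simulated data with known changes.

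The members and lists were chosen with earlier results of these data known. Named were all members with every probe, in each list the called genes or else the 2 of smallest p, and for each member the 2 genes of highest Pearson r over the 9 arrays, without RIKEN clones and gene models. Some genes that this rule names are not reported here. Promoter sequences came from RefSeq tables of GRCm38.p6, and gene coordinates are not printed because the arrays were designed on mm9. Same-numbered deviations from the group means correlated at 0.116, 0.222 and 0.325 between WT and EV, all above 0.1. Between R882H and EV they were 0.088, 0.198 and 0.278, and between R882H and WT 0.071, 0.137 and 0.239. No label says that equal numbers are pairs, and the main fit did not pair them. Pairing entered only through the replicate block, an alternative fitted to all groups. With this block Il6ra had an unadjusted limma p of 0.0329 for WT against EV (adjusted p = 0.584). In the main fit the unadjusted limma p was 0.121. For R882H against EV the block gave Il6ra an unadjusted limma p of 0.0383 (adjusted p = 0.350), against 0.1345 in the main fit. For R882H against WT it gave an unadjusted limma p of 0.00132 (adjusted p = 0.246), against 0.00858 in the main fit. Alternatives were normexp with offset 50 on the median signal (the mean signal, planned, was not used here), quantile, array median and cyclic loess scaling, both filters on dim probes, the mean of probes, slide and replicate blocks, only the compared groups, array weights, the value table, no replicate 3, and each array left out.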

Additional observations from a re-analysis of the deposited data

How the results depend on the processing

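Every count of called receptors stayed at 0 in each comparison under all 22 settings, 9 of which left out 1 array, and 0 of all genes were called in any of them. Between 321 and 2125 genes had an unadjusted limma p under 0.05. The number of arrays limits these tests, and so does the spread over arrays, with an SD of 0.82 for Epor and 0.71 for Il6ra. Of 27 differences (9 receptors in 3 comparisons), 7 kept their sign under every setting. These were Epor, Il6ra and Il6st for R882H against EV, Csf2ra, Epor and Il6ra for R882H against WT, and Il6ra for WT against EV. The other 20 changed sign under at least 1 setting, none of them larger than 0.51 in size and none called, and the cause was not tested unless stated.

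For R882H against EV, normexp gave 0.046 for Csf1r, quantile scaling 0.11 for Csf1r and 0.067 for Csf2rb, cyclic loess 0.11 and 0.074 for the same genes, and the array median -0.13 for Csf3r. Slide as a block gave -0.078 for Csf3r, no replicate 3 in any group 0.17 for Csf2ra, and the deposited values 0.41 for Csf2ra, 0.36 for Csf2rb, 0.39 for Csf2rb2 and 0.45 for Il3ra. For R882H against WT, Il3ra was -0.020 with normexp, -0.082 with the array median, -0.42 with slide as a block and -0.017 with array weights. Csf2rb was 0.014 with quantile scaling, 0.043 with cyclic loess, 0.18 without replicate 3 in any group and 0.36 in the deposited value table, which also gave 0.16 for Csf2rb2 and 0.12 for Il6st. Csf3r was -0.0087 with the array median and Csf1r -0.80 with the mean of its probes. For WT against EV, Csf2rb was -0.016 with normexp, -0.031 with the array median, -0.25 with slide as a block, -0.062 with array weights, -0.25 without replicate 3 in any group and -0.0020 in the value table. Csf3r was 0.051 with quantile scaling, 0.040 with cyclic loess and 0.035 in the value table. The mean of probes gave 0.49 for Csf1r and -0.016 for Csf2rb2, slide as a block -0.019 for Csf2ra and -0.12 for Csf2rb2, and Il6st was -9e-04 without replicate 3 in any group and -0.20 in the value table.

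Leaving out 1 array, R882H against EV ranged from -0.057 to 0.032 for Csf1r, -0.34 to 0.28 for Csf2ra, -0.12 to 0.043 for Csf2rb, -0.28 to 0.077 for Csf2rb2 and -0.42 to 0.028 for Il3ra. R882H against WT ranged from -0.25 to 0.28 for Csf2rb and -0.26 to 0.37 for Il3ra. WT against EV ranged from -0.015 to 0.60 for Csf2ra, -0.30 to 0.23 for Csf2rb, -0.36 to 0.59 for Epor and -0.52 to 0.048 for Il3ra. With the replicate block, which accounts for the pairing of numbers, the count of called receptors stayed at 0 and no call changed; the smallest adjusted p was 0.246, for Il6ra with R882H against WT by limma. The array median moved the median difference of all genes to -0.18 for R882H against EV and -0.11 for R882H against WT. The receptor differences after it, such as 1.05 for Epor and -0.78 for Il6ra against EV, include these shifts.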
